A study of Mus musculus with 6 samples.

Results

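The miR-10 family of the mouse comprises here 4 mature miRNAs, the 5p and 3p arms of the hairpins Mir10a and Mir10b (mmu-miR-10a-5p, mmu-miR-10a-3p, mmu-miR-10b-5p and mmu-miR-10b-3p), followed in nephron progenitors from midgestation to birth. The members were taken by name from a deposited table of 1034 distinct mature miRNAs, and all 4 were found. Nephron progenitors are the cells of the outer kidney that give rise to nephrons. Each sample pooled the kidneys of 1 litter of CD1 mice, with no allele or agent named, taken as embryos at E14.5 (3 samples) or as newborns at P0 (3 samples). Cells were brought into suspension by brief digestion and captured on beads with an antibody to the integrin Itga8. Such capture enriches progenitors and leaves other cells in the pool, and because the table holds miRNAs only, the mRNA markers that define nephron progenitors could not be checked.

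The miR-10 genes lie inside the Hox clusters, the gene arrays that set position along the body axis, next to the group 4 Hox genes. A miRNA hairpin is cut into a duplex of which one strand, the guide, is loaded into an Argonaute protein while the other, the passenger, is mostly degraded. The guide finds its targets mainly through its seed, bases 2 to 8. The miR-10 guides come from the 5p arm and are known to repress Hox mRNAs among other targets.

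The mature sequences are shown because they set what can be told apart in these data. They are from RefSeq (GRCm38.p6), which matched all 4 members at the positions of the deposited table, and the seed is in capitals.
miR-10a-5p: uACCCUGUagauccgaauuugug
miR-10b-5p: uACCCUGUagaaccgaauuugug
miR-10a-3p: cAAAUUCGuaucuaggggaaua
miR-10b-3p: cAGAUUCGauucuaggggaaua

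The 5p arms share their seed and differ at 1 of 23 bases, U12A from miR-10a to miR-10b, counted from the 5′ end, so the division of reads between them rests on that base. How reads were assigned between them (mismatches allowed, reads matching both) is not given in the sources used here. The 3p arms differ at 3 of 22 bases, A3G, U9A and A10U, and have different seeds. Among 1021 miRNAs of the table with a sequence, the seed ACCCUGU belonged to miR-10a-5p and miR-10b-5p alone. GC content was 43.5% in both 5p arms, 36.4% in miR-10a-3p and 40.9% in miR-10b-3p.

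Both hairpins are on the plus strand of their chromosome. Mir10a lies at chr11:96317165-96317274 (GRCm38), outside annotated genes, 993 bases upstream of Hoxb4 in the Hoxb cluster. Mir10b lies at chr2:74726070-74726137 in introns of Hoxd4 and Hoxd3 in the Hoxd cluster. In the hairpins below, from RefSeq, capitals mark the mature 5p arm and, after 18 bases in Mir10a and 17 in Mir10b, the mature 3p arm.
Mir10a: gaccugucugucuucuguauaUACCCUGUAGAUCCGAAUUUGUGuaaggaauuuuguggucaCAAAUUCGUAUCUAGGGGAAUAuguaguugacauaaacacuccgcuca
Mir10b: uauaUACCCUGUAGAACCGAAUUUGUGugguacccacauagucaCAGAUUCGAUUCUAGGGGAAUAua

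Reads recovered from the deposited values totalled 2649506 to 23691028 per E14.5 library and 21508833 to 34934526 per P0 library. Levels are the authors' TPM, reads per base of mature length scaled to a common total, and are listed in the order of replicates 1, 2 and 3. P0 replicate 1 stood apart from its group: across miRNAs its log2(TPM + 1) had a mean correlation of 0.948 to the embryonic libraries, against 0.908 to the remaining newborn libraries. TPM was lower at P0 for most miRNAs, with a median log2 difference of −1.20 over the 670 miRNAs tested, which became −0.17 once each library was scaled by its median ratio to a common reference (median-of-ratios scaling). Each member is therefore read against that median and on both scales.

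The miR-10 guides were among the abundant miRNAs of these cells at both stages. miR-10a-5p ranked between 6 and 20 of 1034 miRNAs in the 6 libraries and miR-10b-5p between 15 and 29. The passenger strands miR-10a-3p and miR-10b-3p ranked between 49 and 82 and between 82 and 123. The 4 members together made up 2.92%, 5.42% and 3.35% of the TPM total of the embryonic libraries, and 4.22%, 1.33% and 1.27% of that of the newborn libraries. The order miR-10a-5p, miR-10b-5p, miR-10a-3p, miR-10b-3p held in 6 of 6 libraries. Within a library miR-10a-5p was 1.87 to 2.46 times miR-10b-5p in TPM, miR-10b-5p was 3.34 to 8.91 times miR-10a-3p, and miR-10a-3p was 1.97 to 3.71 times miR-10b-3p. Counting error was small beside these ratios, since the rarest member, miR-10b-3p, had at least 1659 reads in each library.

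The guide of the Hoxb locus, miR-10a-5p, reached 18228, 34282 and 20637 TPM in the embryonic pools, against 26546, 8606 and 7899 TPM in the newborn pools. P0 replicates 2 and 3 lay below all E14.5 libraries, while P0 replicate 1 lay within the E14.5 range, so the stages overlapped. Mean TPM was 24383 (SD 8657, n = 3) before and 14351 (SD 10567, n = 3) at birth, a log2 difference of −0.95 (SE 0.53, 95% interval −2.08 to 0.19, limma adjusted p = 0.161). Median-of-ratios scaling gave 0.34 (95% interval −0.72 to 1.40, limma adjusted p = 0.644). In a bulk sample, fewer cells that express a miRNA and less of it per cell cannot be told apart.

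The guide of the Hoxd locus, miR-10b-5p, reached 9074, 17113 and 11051 TPM in the embryonic pools, against 12567, 3505 and 3455 TPM in the newborn pools. The order of the 6 libraries was that of miR-10a-5p, with E14.5 replicate 2 highest, P0 replicate 1 next, and overlapping stages. Mean TPM was 12413 (SD 4189, n = 3) before and 6509 (SD 5247, n = 3) at birth. The log2 difference was −1.16 in TPM (SE 0.56, 95% interval −2.37 to 0.04, limma adjusted p = 0.112). Median-of-ratios scaling gave 0.12 (95% interval −0.96 to 1.20, limma adjusted p = 0.888).

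The passenger strand miR-10a-3p reached 1238, 2005 and 1241 TPM in the embryonic pools, against 2293, 913 and 1033 TPM in the newborn pools. Its highest library was P0 replicate 1, the stages overlapped, and the means, 1495 (SD 442, n = 3) and 1413 TPM (SD 765, n = 3), were closer than those of the guides. The log2 difference was −0.17 in TPM (SE 0.53, 95% interval −1.31 to 0.97, limma adjusted p = 0.814). On the median-of-ratios scale its levels were 819, 1365 and 724 in embryos and 2615, 1728 and 1822 in newborns, and the stages no longer overlapped. That difference was 1.12 (SE 0.43, 95% interval 0.15 to 2.08) and did not pass the threshold (limma adjusted p = 0.104). Stages without overlap were found for 35.4% of all tested miRNAs on that scale, 15.8% with P0 higher.

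The passenger strand miR-10b-3p reached 628, 806 and 544 TPM in the embryonic pools, against 770.1, 266 and 278 TPM in the newborn pools. P0 replicate 1 again lay within the E14.5 range and the other newborn libraries lay below it. Mean TPM was 659 (SD 134, n = 3) before and 438 (SD 288, n = 3) at birth. The log2 difference was −0.75 in TPM (SE 0.56, 95% interval −1.98 to 0.47, limma adjusted p = 0.294). Median-of-ratios scaling gave 0.53 (95% interval −0.46 to 1.52, limma adjusted p = 0.423). So in TPM all 4 members overlapped between stages, while 49.6% of tested miRNAs did not, 46.4% with P0 lower.

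**Figure D1:**
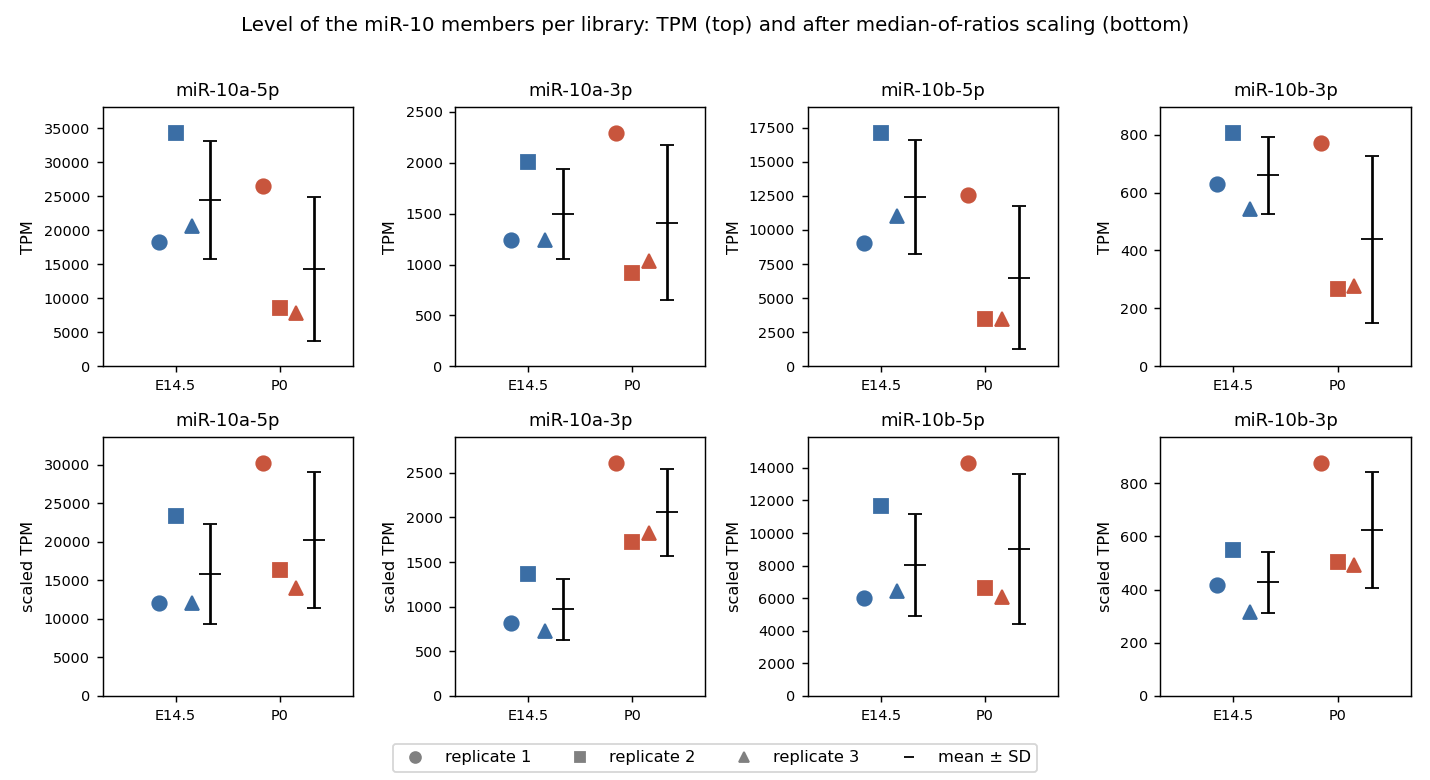
Level of each miR-10 member in each library (vertical axis, TPM in the top row and median-of-ratios scaled TPM in the bottom row) at E14.5 (blue) and P0 (red); symbols mark replicates and black bars mean ± SD (n = 3). In TPM, P0 replicates 2 and 3 lie below every E14.5 library for all 4 members and P0 replicate 1 does not; after scaling, the stages of miR-10a-3p are separate.

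None of the 4 members passed an adjusted p under 0.05 in the fit to all 6 libraries, on either scale. In the same fits limma called 34.2% of the 670 miRNAs in TPM, 32.8% lower and 1.34% higher at P0. After median-of-ratios scaling it called 10.9%, 5.22% lower and 5.67% higher. These shares depended on the libraries fitted. Leaving out any 1 other than P0 replicate 1 gave 72 (without E14.5 replicate 3) to 158 calls (without E14.5 replicate 2) in place of 229 in TPM. After scaling it gave 0 to 7 in place of 73. Whether the smaller set or particular libraries lowered the calls was not tested. The members' log2 differences had a median of −0.85 in TPM, against −1.20 for all tested miRNAs, and 0.43 after scaling, against −0.17. The authors' deposited table gave log2 fold changes of −0.12 for miR-10a-5p, 0.77 for miR-10a-3p, −0.31 for miR-10b-5p and 0.20 for miR-10b-3p, with adjusted p-values of 0.916, 0.364, 0.741 and 0.856.

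The TPM result turned on P0 replicate 1. Without that library, 3 of the 4 members were called lower at P0. The log2 difference was then −1.51 for miR-10a-5p (limma adjusted p = 0.00129), −1.78 for miR-10b-5p (limma adjusted p = 0.000431) and −1.25 for miR-10b-3p (limma adjusted p = 0.00452). For miR-10a-3p it was −0.58 (limma adjusted p = 0.121). That fit called 61% of 689 miRNAs, 53% lower and 7.98% higher, and the median of all was −1.40, close to the values of the called members. With both median-of-ratios scaling and the same library left out, no member was called, although 48.2% of miRNAs were, 26.6% lower and 21.6% higher. The differences were then −0.05 for miR-10a-5p, 0.88 for miR-10a-3p, −0.32 for miR-10b-5p and 0.20 for miR-10b-3p (limma adjusted p = 0.921, 0.0537, 0.440 and 0.607).

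**Figure D2:**
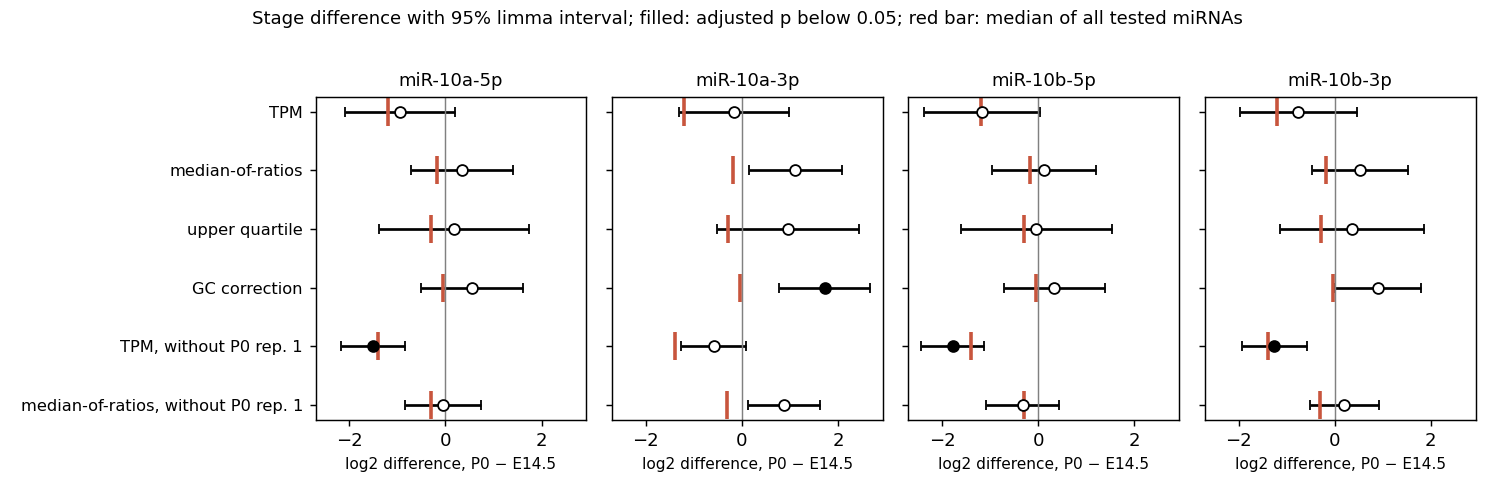
Log2 difference between P0 and E14.5 (horizontal axis) of each member under 6 settings (vertical axis), with the 95% limma interval; filled points have an adjusted p below 0.05 and the red bar is the median of all tested miRNAs in that setting. In TPM without P0 replicate 1, 3 members are filled, and miR-10a-3p is filled with the GC correction.

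Base composition differed among the libraries, with P0 replicate 1 on the side of the embryonic libraries. Across 666 miRNAs, the deviation of a miRNA from its mean over libraries correlated with its GC content at −0.42, −0.18 and −0.31 in the embryonic libraries and at −0.22, 0.44 and 0.42 in the newborn ones. With a GC correction fitted in each library, the log2 difference of miR-10a-3p was 1.72 (95% interval 0.77 to 2.67, limma adjusted p = 0.0317), and it was the 1 member called. That fit called 10.4% of 666 miRNAs, 4.5% lower and 5.86% higher. The other members had 0.56 (miR-10a-5p), 0.34 (miR-10b-5p) and 0.91 (miR-10b-3p), with limma adjusted p-values of 0.466, 0.669 and 0.160. Whether the correction removes biology along with base composition was not tested.

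Sums of miRNAs that mark other cell types were lower in every P0 library than in every E14.5 library in TPM, the scale on which 32.8% of all miRNAs were called lower. The 2 endothelial miRNAs (miR-126a arms) summed to 26608 to 44921 TPM at E14.5 and 5634 to 8158 at P0, and both were called lower in TPM. The 5 epithelial miRNAs (miR-200 family and miR-141) summed to 4122 to 23183 and 500.2 to 1542 TPM, with 5 of 5 called lower. The 6 stromal and smooth muscle miRNAs summed to 84246 to 100970 and 33381 to 45859 TPM, with 4 called lower. For 4 erythroid miRNAs the sums were 242 to 417 and 127 to 189 TPM, with 1 called lower, and for 4 leukocyte miRNAs 632 to 1202 and 454 to 629 TPM, with none called. Members of these lists differed in direction: miR-486a-5p had 33.7, 61.9 and 73.0 TPM in embryos and 37.4, 138 and 146 in newborns, and miR-223-3p had 156, 107 and 147 TPM in embryos and 249, 141 and 147 in newborns. After median-of-ratios scaling, where 5.22% of all miRNAs were called lower and 5.67% higher, 1 of 2 endothelial and 3 of 5 epithelial miRNAs were called lower, and none of the stromal or erythroid ones. On that scale 1 of the 4 leukocyte miRNAs was called higher, and the median log2 difference of that list was 0.43, against −0.77 in TPM. No listed miRNA was at 0 in any library. Among the E14.5 libraries, replicate 2, which had the highest TPM of each miR-10 member, had the lowest sum of each of these 5 lists. P0 replicate 1, with miR-10 levels in or above the E14.5 range, had the highest list sums of the newborn libraries for 4 lists and the lowest for the erythroid list. The part of cell composition in the miR-10 levels was not tested.

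The balance between arms was then compared within each library, which removes the scaling. For the Hoxb locus, the 3p arm made up 6.09%, 5.29% and 5.43% of the miR-10a reads in the embryonic libraries, and 7.62%, 9.19% and 11.1% in the newborn ones. Every P0 library, replicate 1 included, lay above every E14.5 library. The widest 95% Wilson interval of the E14.5 libraries was 5.89 to 6.29% (replicate 1, 53713 reads), and E14.5 replicate 1 lay outside the intervals of the other E14.5 libraries, so replicates too differed beyond counting error. In TPM, the 5p over 3p ratio had a mean of 16.1 (SD 1.26, n = 3) before and 9.54 (SD 1.97, n = 3) at birth.

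For the Hoxd locus, the 3p arm made up 6.20%, 4.30% and 4.49% of the miR-10b reads in the embryonic libraries and 5.53%, 6.75% and 7.14% in the newborn ones. The stages overlapped, because E14.5 replicate 1 lay above P0 replicate 1. The 5p over 3p ratio had a mean of 18.6 (SD 3.68, n = 3) before and 13.9 (SD 2.09, n = 3) at birth.

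Across the 245 hairpins with both arms measured, limma fitted the same arm ratio with stage as the only term. The log2 difference in 5p over 3p was −0.78 for miR-10a (SE 0.37, 95% interval −1.65 to 0.10, limma adjusted p = 0.195) and −0.41 for miR-10b (SE 0.38, 95% interval −1.31 to 0.49, limma adjusted p = 0.446). No hairpin was called in that fit (0% of 245), while 68 (27.8%) had an unadjusted p under 0.05, miR-10a and miR-10b not among them. With a mean of at least 10 TPM in both arms, 4 of 145 hairpins were called, miR-10a and miR-10b not among them, and miR-10a had an unadjusted p of 0.0438 (95% interval −1.52 to −0.03, limma adjusted p = 0.130). The stages did not overlap for 31.4% of hairpins, 17.1% with the ratio lower at P0, and 79 hairpins had a more negative difference than miR-10a. Without P0 replicate 1, limma called 44.5% of hairpins, 21.2% lower and 23.3% higher, and the differences of miR-10a and miR-10b were −0.92 and −0.53 (limma adjusted p = 0.0611 and 0.245). With each arm corrected for GC content the difference of miR-10a was −1.18 (95% interval −2.24 to −0.13, limma adjusted p = 0.148) and that of miR-10b −0.59 (limma adjusted p = 0.348), and no hairpin was called, with 69 at an unadjusted p under 0.05.

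**Figure D3:**
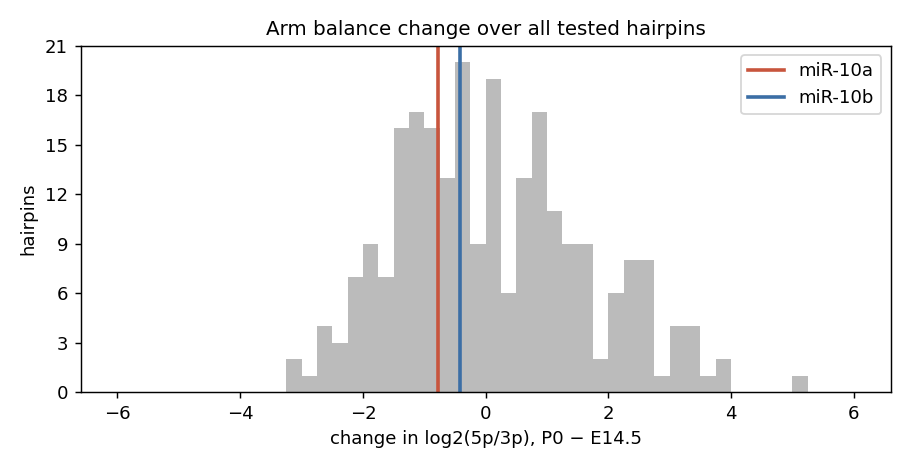
Number of hairpins (vertical axis) by the difference between P0 and E14.5 in log2(5p/3p) (horizontal axis) for the 245 hairpins tested, with miR-10a and miR-10b as lines. Both lines, at −0.78 and −0.41, lie within the body of the distribution.

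Between the loci, the Hoxb copy had the larger share of the family's reads in both arms, and the share was higher in the newborn libraries. miR-10a-5p made up 66.8%, 66.7% and 65.1% of the 5p reads in embryos and 67.9%, 71.1% and 69.6% in newborns. miR-10a-3p made up 66.3%, 71.3% and 69.5% of the 3p reads in embryos and 74.9%, 77.4% and 78.8% in newborns. In each arm the lowest P0 library lay above the highest E14.5 library. No like ratio between loci was computed for other families; among the arm ratios of hairpins, 31.4% did not overlap between the stages. The 5p shares depend on the assignment of reads at 1 base, whose rule is not known here. The log2 ratio of miR-10a over miR-10b in TPM was higher at P0 by 0.22 in the 5p arm and by 0.58 in the 3p arm, a 1.16-fold and a 1.50-fold difference in the ratio. Exact permutation of the libraries, two-sided, gave p = 0.1 for each (Benjamini-Hochberg adjusted p = 0.1 over these 2 ratios), which is the lowest p possible for 3 against 3 and cannot reach 0.05. Leaving out each library in turn gave differences of 0.17 to 0.27 in the 5p arm and 0.49 to 0.67 in the 3p arm. As the stages do not overlap in either ratio, leaving out 1 library could not have reversed the direction. The 5p arms have the same GC content, so the GC correction left their ratio at 0.22, while that of the 3p arms became 0.81.

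**Figure D4:**
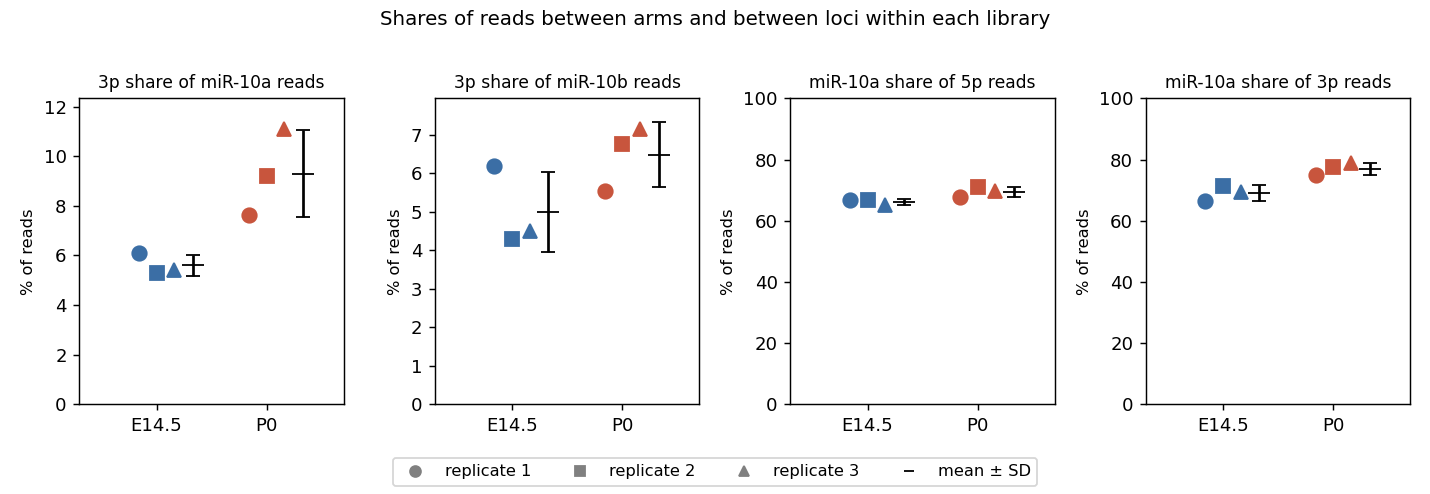
Shares of reads within each library (vertical axes, % of reads) at E14.5 (blue) and P0 (red): the 3p arm of each hairpin, and miR-10a among the reads of each arm; symbols mark replicates and black bars mean ± SD (n = 3). The stages are separate for the 3p share of miR-10a and for both miR-10a shares, and overlap for the 3p share of miR-10b.

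The sum of both guides, the pool of RNA that carries the seed ACCCUGU, was 27303, 51395 and 31689 TPM in embryos and 39113, 12111 and 11354 TPM in newborns. It overlapped between stages, with P0 replicate 1 above 2 of the E14.5 libraries. The guides held 94.4% (SD 0.661, n = 3) of the family's TPM before and 91.2% (SD 1.55, n = 3) at birth. The 4 members summed to a mean of 38949 TPM (SD 13387, n = 3) before and 22711 TPM (SD 16861, n = 3) at birth, with p = 0.3 by exact two-sided permutation. On the median-of-ratios scale the means were 25237 and 31866, with p = 0.5 by the same exact permutation.

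The other miRNAs of the Hox clusters are miR-196a, miR-196b and miR-615. Of their 7 mature forms, all tested, none was called in TPM and 2 were called higher after median-of-ratios scaling, miR-196a-5p and miR-615-3p, against 34.2% of all miRNAs called in TPM and 5.67% called higher on the scaled values. Both calls were lost on that scale without any 1 library other than P0 replicate 1 (limma adjusted p = 0.0516 to 0.192). Those fits called almost no miRNA at all, so the loss was not particular to these 2. The call of miR-615-3p was also lost with upper-quartile scaling (limma adjusted p = 0.121) and the GC correction (0.143). Its log2 difference was 1.79 with upper-quartile and 1.95 with median-of-ratios scaling. The median log2 difference of the 7 forms was 0.31 in TPM and 1.60 after scaling, against −0.85 and 0.43 for the miR-10 members. In the authors' deposited comparison miR-196a-5p, which has 2 rows, had log2 fold changes of 3.09 and 2.06 (authors' adjusted p = 0.00082 and 0.0114). Those of miR-196b-5p and miR-615-5p were 1.90 and 3.20 (0.0311 and 0.0157). The other forms were not under 0.05, among them miR-615-3p with 1.40 (0.103) and miR-196b-3p with −1.29 (0.782). Among libraries, miR-196a-5p differed in order from the miR-10 guides: its TPM was 22892, 35879 and 37971 in embryos and 28012, 161118 and 171747 in newborns. It was highest in P0 replicates 2 and 3, the libraries in which miR-10a-5p and miR-10b-5p were lowest. Without P0 replicate 1, miR-196a-5p, miR-196b-5p and miR-615-5p were called higher and miR-196a-2-3p and miR-196b-3p lower in TPM. With median-of-ratios scaling as well, miR-196a-5p, miR-196b-5p and both miR-615 arms were called higher and miR-196b-3p lower. These are 5 of 7 in each fit, against 61% and 48.2% of all miRNAs. By direction, 7.98% of all miRNAs were called higher and 53% lower in TPM. With scaling as well, 21.6% were called higher and 26.6% lower. Levels were low for miR-615-5p, at 0.757, 3.31 and 6.66 TPM in embryos and 2.56, 20.1 and 18.4 in newborns. For miR-196b-3p they were 40.1, 28.2 and 34.8 TPM in embryos and 50.3, 6.93 and 0 in newborns.

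The relatives of miR-10 outside the Hox clusters, miR-99a, miR-99b and miR-100, are shown by their 5p arms with the seed in capitals, because they share sequence with the miR-10 guides without sharing the seed.
miR-99a-5p: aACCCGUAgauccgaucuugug
miR-99b-5p: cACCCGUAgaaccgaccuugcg
miR-100-5p: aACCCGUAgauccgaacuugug

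The longest run shared with miR-10a-5p was GUAGAUCCGAA in miR-100-5p, 11 bases starting at base 7 of miR-10a-5p. With miR-10b-5p it was GUAGAACCGA in miR-99b-5p, 10 bases. Of the 6 mature forms of these relatives, none was called in TPM and 2 were called higher after scaling, miR-99b-5p and miR-99b-3p, against the same 34.2% and 5.67% of all miRNAs. Both calls were lost in the same way (limma adjusted p = 0.0519 to 0.221), and with upper-quartile scaling (0.117 and 0.183) and the GC correction (0.122 and 0.210). miR-99b-5p had a mean of 3342 TPM (SD 1256, n = 3) before and 4794 TPM (SD 697, n = 3) at birth, and its log2 differences on the unscaled and scaled values were 0.58 and 1.86 (limma adjusted p = 0.329 and 0.0332). miR-99a-5p, with 823 TPM (SD 330, n = 3) and 287 TPM (SD 144, n = 3), had −1.54 in TPM (limma adjusted p = 0.0517) and −0.26 on the scaled values (limma adjusted p = 0.721). Without P0 replicate 1, miR-99a-5p and miR-100-3p were called lower in TPM, 2 of 6 against 53% of all miRNAs called lower. With scaling as well, both miR-99b arms were called higher, 2 of 6 against 21.6% of all miRNAs called higher. In both directions together, these fits called 61% and 48.2% of all miRNAs. miR-100-3p was hardly detected, at 0.379, 2.55 and 8.81 TPM in embryos and 1.15, 0 and 0 in newborns.

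The miRNAs whose pattern over the 6 libraries was most like that of each member were taken as the 5 with the highest Pearson r of log2(TPM + 1) among 431 others with a mean of at least 10 TPM. These are descriptions, since the libraries share the general TPM difference. For miR-10a-5p the nearest was miR-10b-5p (r = 0.996), followed by miR-93-3p, miR-362-5p, miR-128-3p and miR-3068-3p (r = 0.978 to 0.991). For miR-10b-5p they were miR-93-3p, miR-10a-5p, miR-128-3p, miR-362-5p and miR-130b-3p (r = 0.990 to 0.996). For miR-10b-3p they were miR-362-5p, miR-26a-5p, miR-10a-5p, miR-93-5p and miR-130a-3p (r = 0.976 to 0.979). miR-10a-3p had miR-532-5p, miR-146b-5p, miR-25-3p, miR-181b-2-3p and miR-93-5p (r = 0.953 to 0.980), each highest in P0 replicate 1 as it was itself. Its r with its own guide miR-10a-5p was 0.878, and that between miR-10b-3p and miR-10b-5p was 0.975.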

How the data were processed

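Small RNA from 6 litter pools of nephron progenitors, 3 per stage, was made into single-end QIAseq miRNA libraries, per the labels' protocols. The authors deposited 1 table of 1104 rows with a TPM value per library. Per the submitters' processing notes, mm10, featureCounts and DESeq2 1.26.0 were used; trimming, aligner and handling of molecular tags are not given in the sources used here. Wilson intervals of read shares cover counting error only; limma intervals come from the spread between libraries. Multiplied by end minus start of its row, each TPM value was a whole multiple of 1 step per library (100% of values, tolerance 0.001), which gave reads. Per the file headers, the deposited table also holds the authors' baseMean (a normalised signal), log2 fold change, test statistic (a score) and p-values; their sign was read as P0 over E14.5.

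Where a miRNA had several rows (52 miRNAs, no member), the most abundant row stood for it. Stage was tested in all 6 libraries with limma 3.58.1 (R 4.3.3, mean-variance trend) on log2(TPM + 1), keeping miRNAs that averaged 1 TPM or more, with Benjamini-Hochberg adjustment over all of them. The pseudocount understates changes of low miRNAs. Arm ratios were fitted likewise over hairpins with both arms. Single ratios and sums were tested by exact permutation over libraries (scipy 1.17.1). Scripts were tested on simulated data. Gene context and GC content (98.6% of miRNAs) came from GENCODE M21 (GRCm38, the build named mm10), printed sequences from RefSeq. The members, lists and the rule for named miRNAs (the members, other Hox-cluster miRNAs, miR-99 and miR-100, and the 5 nearest miRNAs in pattern) were chosen with earlier results of these data known. The labels used here give no sequencing batch. No replicates of a group agreed within sampling noise.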

Additional observations from a re-analysis of the deposited data

How the results depend on the processing

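The direction of the stage difference of the miR-10 members depended on the scaling: it was negative for all 4 in log2(TPM + 1) and positive for all 4 under median-of-ratios scaling (0.34 for miR-10a-5p, 1.12 for miR-10a-3p, 0.12 for miR-10b-5p and 0.53 for miR-10b-3p), under the GC correction (0.56, 1.72, 0.34 and 0.91 in that order) and in limma-voom on reads given the same factors, chosen after seeing the data (0.33, 1.10, 0.11 and 0.53). With upper-quartile scaling it was 0.18 for miR-10a-5p, 0.95 for miR-10a-3p, 0.37 for miR-10b-3p and −0.04 for miR-10b-5p. Filter, pseudocount, summed rows, limma-voom on library totals and leaving out the most abundant miRNA kept the negative sign of all 4 and called none. With the most abundant miRNA left out, miR-10a-3p was at −0.0076 (limma adjusted p = 0.992), which is hardly a direction. Deviations of libraries with the same replicate number correlated at 0.193, 0.183 and 0.0423, and those with different numbers at −0.18 to 0.077. P0 replicate 3 correlated best with another number, and every other library with its own. As the numbers are of different litters, they were not treated as pairs, and a replicate block was fitted as an alternative. With the replicate block, 247 miRNAs were called against 229; the members' differences were as without it and none was called in TPM or after median-of-ratios scaling, while with the GC correction the block kept the call of miR-10a-3p (1.72, limma adjusted p = 0.0382). Among the other named miRNAs the block added calls of miR-196a-5p in TPM (limma adjusted p = 0.0223) and miR-615-5p after median-of-ratios scaling (0.0499), and lost that of miR-99b-3p (0.0517). The calls of miR-196a-5p, miR-615-3p, miR-99b-5p and miR-99b-3p after median-of-ratios scaling held with 1 library left out only for P0 replicate 1; of them, upper-quartile scaling and the GC correction kept miR-196a-5p alone, and limma-voom with median-of-ratios scaling miR-99b-5p alone. Leaving out each library in turn gave −1.51 to −0.63 for miR-10a-5p, −0.58 to 0.08 for miR-10a-3p, −1.78 to −0.85 for miR-10b-5p and −1.25 to −0.49 for miR-10b-3p in TPM, with 3 calls without P0 replicate 1 and none otherwise; miR-10a-3p was positive without E14.5 replicate 2 (0.061) and without P0 replicate 2 (0.081). The same on the median-of-ratios scale, a combination added after seeing the data, gave −0.05 to 0.67, 0.88 to 1.41, −0.32 to 0.44 and 0.20 to 0.74, with no call; miR-10a-5p was −0.048 without P0 replicate 1, and miR-10b-5p was −0.079 without E14.5 replicate 1, −0.032 without E14.5 replicate 3 and −0.32 without P0 replicate 1. Leaving out each library, the arm difference ranged from −0.92 to −0.63 for miR-10a and from −0.58 to −0.31 for miR-10b; the GC correction gave −1.18 and −0.59, and the filter at 10 TPM called 4 of 145 hairpins against 0 of 245. The summed level differed between the stages by −16239 TPM, by 6629 after median-of-ratios and 4726 after upper-quartile scaling, and by −25972 without P0 replicate 1 to −8610 without E14.5 replicate 2. The 3p locus difference of 0.58 became 0.81 with the GC correction. The causes were not tested. Depth did not limit the members, whose smallest count was 1659 reads.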
